A study of Mus musculus with 12 samples.

Results

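The genes described here are 32 markers of endothelial cells, the cells that line blood vessels. They were taken as every transcript probe whose gene name on the array, current or older, is one of a list of 32 endothelial genes. The list was matched by 54 of the array's 41174 transcript probes, with Aplnr found under its older name Agtrl1 and Esam under Esam1. All 32 genes were measured, among 18258 genes that passed the same filter on signal. Probes had to stand well above background in all 3 hearts of some group to be kept, which 46 of the 54 did, and a gene was represented by its brightest kept probe. All 32 representing probes were well above background on all 12 arrays, so no member entered through a single group.

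RNA came from the whole hearts of male C57BL/6 mice and was read on 12 arrays, 1 array per heart and 3 hearts per group. In cardioGRMRdKO mice at 1 month and 2 months of age, Cre is expressed from the αMHC promoter of cardiomyocytes and acts on floxed alleles of GR (Nr3c1, the glucocorticoid receptor) and MR (Nr3c2, the mineralocorticoid receptor). The dflox littermates of the same ages carried the same floxed alleles without Cre. All 4 groups therefore share the floxed alleles, and hearts with Cre alone were not part of the design, so the loss of the receptors and the presence of Cre cannot be told apart. In these bulk samples, fewer endothelial cells and less RNA per endothelial cell cannot be told apart either.

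Endothelial cells hold to each other through junction proteins such as VE-cadherin, and they take signals from growth factors through tyrosine kinase receptors for VEGF and the angiopoietins. In the heart, capillary endothelium is the most abundant kind and passes fatty acids from the blood to the cardiomyocytes, with Gpihbp1 holding lipoprotein lipase at the vessel wall and Cav1 forming caveolae. The ETS factor Erg and the SOX factors Sox17 and Sox18 maintain the expression of many of these genes, and Notch signalling, with Dll4 as a ligand and Notch4 as a receptor, takes part in setting the arterial type of endothelium.

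The sequences under the central measurements are shown first. Icam2, Sox17 and Cav1 are the members whose values at 2 months are examined most closely, and Sox17 and Cav1 have a second probe that gave another value. Each line is the first 30 of the 60 bases of a probe, 5′ to 3′, from the deposited scanner files, and nothing is in capitals because no part of a probe is singled out. Coordinates of whole probes are on build mm7, as in the file headers.
Icam2, chr11:106486772-106486831, minus strand: ccctggtggttaccagaactcaacatggca
Sox17 brightest probe, chr1:4487014-4487073, minus strand: ctcactgacttattccatttcttgaaagtg
Sox17 second probe, chr1:4487401-4487460, minus strand: cagtatctgccctttgtgtataagcccgag
Cav1 brightest probe, chr6:17281625-17281684, plus strand: atgtctgttctccctagatactcagtttta
Cav1 second probe, chr6:17279653-17279712, plus strand: gtgacaaaatattggttttaccgcttgttg
The Sox17 probes start 387 bases apart and the Cav1 probes 1972 bases apart, so each pair reads a different stretch of its gene. Exon and UTR annotation of this build was not used here.

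Levels are log2 signals relative to the 75th percentile of their array, so that 0 is that percentile. Levels of different genes come from different probes and are not compared with each other. The 32 genes had group means from −1.23 to 7.82, and 27 of them lay above 0 in all 4 groups. Endothelial transcripts were measured well within the range of the arrays in every group. The standard error of a difference between 3 and 3 hearts ran from 0.0953 to 0.31 over the members, with a median of 0.148, against a median of 0.173 over all genes.

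Of the facts on the whole series that bear on these results, Nr3c1 fell by 1.10 on the log2 scale in cardioGRMRdKO hearts at 2 months (limma, adjusted p = 0.00565), and its 1-month difference of −0.73, with 2 hearts measured in each group, did not pass (adjusted p = 0.119). Nr3c2 was dim, and its differences of 0.06 at 1 month (adjusted p = 1) and −0.46 at 2 months (adjusted p = 0.651) did not pass, so at 1 month neither receptor was called. Hearts differed widely in markers of airway and alveolar epithelium, a tissue not named in the labels. Of 18 such markers 14 passed the filter, and the mean log2 level of the 12 with a value on every array was −2.62, −2.25 and −3.99 in cardioGRMRdKO and 0.51, 1.46 and 1.14 in dflox hearts at 1 month. At 2 months it was 1.37, −4.02 and 1.31 in cardioGRMRdKO and −2.11, −3.87 and 1.93 in dflox hearts. Lung holds endothelium too, so this level was also tried as a covariate, and its values stand beside the results it touches. The arrays lay on 3 slides, and at 1 month every cardioGRMRdKO array had an inner and every dflox array an outer place on its slide, so that genotype and place cannot be told apart there.

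The first comparison asked whether endothelial genes differ between cardioGRMRdKO and dflox hearts at 1 month. None of the 32 passed the test, where limma called 0.98% of all genes at an adjusted p under 0.05. At an unadjusted p under 0.05 the count was also 0 of 32, against 9.4% of all genes. The differences were small and leaned one way, with 28 of 32 members below 0 (87.5%), against 50.3% of all genes. Their median was −0.111, against −0.00102 over all genes, and they ranged from −0.304 to 0.0928. With normexp background correction the members' median was −0.0957 and that of all genes −0.0472, a distance of −0.048. Markers of several other cell types leaned the same way at 1 month, while 12 of 13 macrophage markers were above 0 (median 0.204). All 12 fibroblast markers (median −0.209), 10 of 12 smooth muscle and pericyte markers (median −0.193), all 7 epicardial markers (median −0.532), all 10 fat cell markers (median −0.751) and 11 of 14 cardiomyocyte markers (median −0.0947) were below 0, and none of them was called. The lean is thus not shown to be particular to endothelial genes, and the part of these cell types in it was not tested. Fat cell and epicardial markers varied widely between hearts. Per heart, the median deviation of fat cell markers from their 12-heart means was −2.03 to 0.57 in cardioGRMRdKO and 0.18 to 0.58 in dflox hearts. For epicardial markers these ranges were −0.70 to 0.22 and 0.32 to 0.42. Every 95% interval of a member stayed within a 2-fold change either way, which held for 81.2% of all genes, and 25 of the 32 intervals stayed within 1.5-fold. In 5 members, Esam, Pecam1, Rasip1, Tek and Vwf, every cardioGRMRdKO heart lay below every dflox heart, and 0 members showed the reverse. That is 15.6% of the members, against 9.84% of all genes with such a gap downwards, while 9.04% of all genes had one upwards.

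Pecam1 encodes CD31, an adhesion protein at contacts between endothelial cells, and had the smallest p of the members at 1 month. Its log2 level was 0.06, −0.06 and −0.12 in cardioGRMRdKO hearts and 0.18, 0.25 and 0.29 in dflox hearts. The hearts did not overlap, and the difference of −0.28 (SE 0.138) did not pass the test (adjusted p = 0.605). At 2 months Pecam1 stood at −0.19, −0.15 and 0.31 in cardioGRMRdKO and 0.13, −0.06 and −0.10 in dflox hearts, fully overlapping, with a difference of −0.00 (95% interval −0.31 to 0.30).

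Icam2, an adhesion molecule for leukocytes that is constitutive on endothelium, came next at 1 month, with 4.14, 3.86 and 4.15 in cardioGRMRdKO and 4.45, 4.28 and 4.14 in dflox hearts. The lowest dflox heart lay within the cardioGRMRdKO range, and the difference was −0.24 (SE 0.12, adjusted p = 0.633). Calcrl, the receptor subunit for adrenomedullin, had 1.82, 1.70 and 1.98 in cardioGRMRdKO and 1.97, 2.06 and 2.10 in dflox hearts. The difference was −0.21 (SE 0.117, adjusted p = 0.696). A single cardioGRMRdKO heart reached the dflox range there. Mmrn2, a glycoprotein of the endothelial matrix, had 4.70, 4.83 and 4.88 in cardioGRMRdKO and 5.12, 5.30 and 4.87 in dflox hearts. Its difference was −0.29 (SE 0.17, adjusted p = 0.739), with overlap at the edge of the ranges. With the airway marker level as a covariate the differences of Pecam1, Icam2, Calcrl and Mmrn2 were −0.22, −0.29, −0.25 and −0.24, and none passed.

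**Figure D1:**
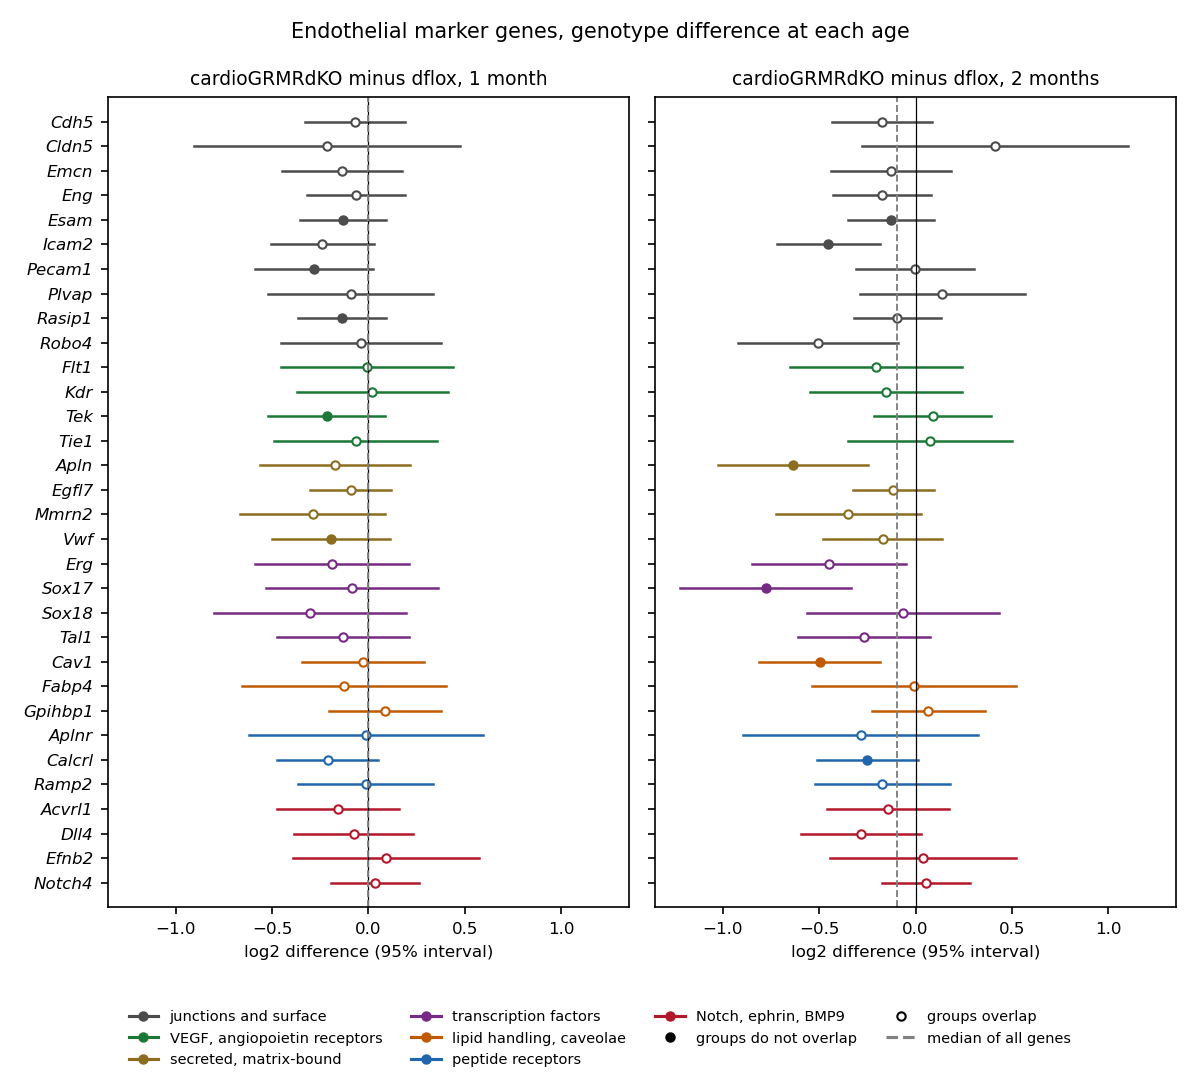
Log2 difference between cardioGRMRdKO and dflox hearts at 1 month (left) and 2 months (right) for each of the 32 endothelial genes, coloured by role, with 95% intervals from limma (3 hearts per group). Filled points mark the 5 genes at 1 month and the 6 at 2 months whose groups do not overlap, and the dashed line is the median of all 18258 genes, which lies at −0.095 at 2 months.

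At 2 months the same comparison again called none of the 32 members, where 2.31% of all genes were called. Sox17, Icam2, Apln and Cav1 had the smallest p values, with log2 differences between −0.78 and −0.45. At an unadjusted p under 0.05 there were 6 members (Apln, Cav1, Erg, Icam2, Robo4 and Sox17), all below 0, against 15.6% of all genes. Members below 0 numbered 25 of 32 (78.1%), against 63% of all genes, so the background leaned the same way at this age. The members' median was −0.161 and that of all genes −0.095, which leaves −0.066 relative to all genes. With the arrays scaled on their median in place of the 75th percentile, the median of all genes moved by 0.116 to 0.0215 and that of the members to −0.0434, and the distance between them was −0.065. The members ranged from −0.777 to 0.413. A 2-fold change either way was outside the 95% interval of 29 members, and the exceptions were Apln, Cldn5 and Sox17. As given above, the members' median standard error was lower than that of all genes, which narrows their intervals. The 6 members whose cardioGRMRdKO hearts all lay below all dflox hearts were Apln, Calcrl, Cav1, Esam, Icam2 and Sox17, which is 18.8% of the members, against 11.2% of all genes with such a gap downwards. No member had a gap upwards, which 6.55% of all genes had.

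Sox17, a transcription factor of arterial and capillary endothelium, had −0.18, −0.26 and −0.89 in cardioGRMRdKO hearts and 0.12, 0.40 and 0.48 in dflox hearts at 2 months. The groups were separate, with cardioGRMRdKO replicate 3 far below the others. The difference was −0.78 (SE 0.2, 95% interval −1.22 to −0.33, adjusted p = 0.0867). It passed only with robust variances and an intensity trend (adjusted p = 0.0495), of 16 other settings. Its second probe gave −0.50, −0.41 and −0.30 in cardioGRMRdKO and −0.07, −0.24 and −0.27 in dflox hearts. Replicate 3 was the highest of the cardioGRMRdKO hearts on that probe, and the difference was −0.21. At 1 month the brightest probe had 0.40, 0.18 and 0.04 in cardioGRMRdKO and 0.47, 0.35 and 0.06 in dflox hearts, which differed by −0.09. On the second probe the difference at 1 month was −0.29. Sox17 is also on the list of lung capillary markers, and with the airway marker level as a covariate its difference at 2 months was −0.77 (adjusted p = 0.134).

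Icam2 had 3.49, 3.48 and 3.26 in cardioGRMRdKO hearts and 3.84, 3.84 and 3.90 in dflox hearts at 2 months. The groups were separated by more than either group's own spread, and the difference was −0.45 (SE 0.12, 95% interval −0.72 to −0.18, adjusted p = 0.0984). Apln, the peptide apelin that tip cells of growing vessels secrete, had 0.56, 0.40 and 0.36 in cardioGRMRdKO and 1.02, 1.13 and 1.08 in dflox hearts. The difference was −0.64 (SE 0.175, adjusted p = 0.112). On its second probe the hearts did not overlap either, at 0.55, 0.70 and 0.49 in cardioGRMRdKO and 0.88, 1.13 and 0.83 in dflox hearts, and the difference was −0.37. Cav1, the coat protein of caveolae, which smooth muscle, fibroblasts and fat cells also make, had 5.42, 5.44 and 5.02 in cardioGRMRdKO and 5.78, 5.69 and 5.90 in dflox hearts. Its difference was −0.50 (SE 0.142, adjusted p = 0.126), and the groups overlapped on its second probe, where it was −0.31.

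**Figure D2:**
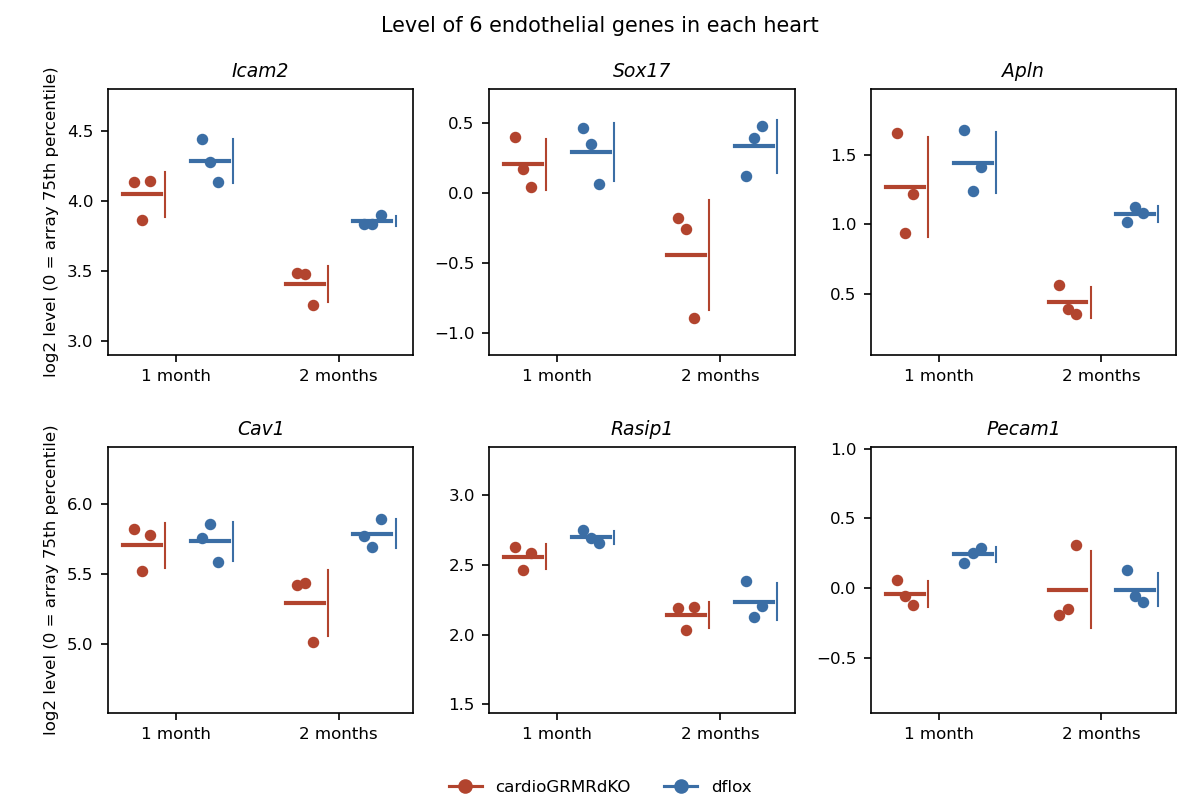
Log2 level of 6 endothelial genes in each heart (points), with the group mean (horizontal line) and SD (vertical line), cardioGRMRdKO left of dflox at each age. At 2 months the 3 cardioGRMRdKO hearts lie below the 3 dflox hearts for Icam2, Sox17, Apln and Cav1, and they overlap for Rasip1 and Pecam1.

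By role, the members above differ in how far each group of genes leaned. Of the 10 genes of junctions and the cell surface, all 10 were below 0 at 1 month (median −0.134) and 8 at 2 months (median −0.128). Cdh5, which encodes VE-cadherin, differed by −0.07 and −0.17 at 1 and 2 months, and Cldn5, the tight junction protein claudin-5, by −0.22 and 0.41, with the largest standard error of the members (0.31). Emcn and Eng, endomucin and the TGF-β co-receptor endoglin, differed by −0.14 and −0.07 at 1 month and by −0.13 and −0.17 at 2 months. Esam, a tight junction adhesion molecule, had separate groups at both ages with differences of only −0.13 at each (95% interval −0.35 to 0.09). Robo4, a guidance receptor that stabilises vessels, differed by −0.04 and −0.50, and Plvap, the protein of fenestral diaphragms, by −0.09 and 0.14. Rasip1, a Ras-interacting protein needed for vessel lumens, differed by −0.14 and −0.09.

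The 4 tyrosine kinase receptors had medians of −0.0375 at 1 month and −0.0382 at 2 months. Kdr, the main signalling receptor for VEGF, differed by 0.02 and −0.15, and Flt1, which binds VEGF with little signalling of its own, by −0.01 and −0.20. Tek, the angiopoietin receptor Tie2, differed by −0.22 and 0.09, and its partner Tie1 by −0.07 and 0.08. A dim second Tek probe gave −0.54 at 2 months, so the direction of Tek there differed between its probes. The intervals of all 4 genes stayed within a 2-fold change at both ages.

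The 4 transcription factors were all below 0 at both ages, with medians of −0.159 and −0.358. Erg had 2.27, 2.08 and 1.61 in cardioGRMRdKO and 2.20, 2.42 and 2.69 in dflox hearts at 2 months. The groups overlapped, and the difference was −0.45 (SE 0.179, adjusted p = 0.264). Sox18 differed by −0.30 and −0.07, and Tal1, a factor of blood and vessel progenitors, by −0.13 and −0.27. Secreted and matrix-bound members were likewise all 4 below 0 at both ages, with medians of −0.184 and −0.259. Among them Egfl7, a secreted vessel guidance protein, differed by −0.09 and −0.11, and Vwf, the von Willebrand clotting factor, by −0.20 and −0.17. Apln and Mmrn2 stood at −0.17 and −0.29 at 1 month, and Mmrn2 at −0.35 at 2 months.

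The remaining groups were divided. Gpihbp1 differed by 0.09 and 0.07, and Fabp4, a fatty acid carrier of capillaries and fat cells, by −0.13 and −0.01. Markers of fat cells were low in cardioGRMRdKO 1-month replicate 1, with a median deviation of −2.03 against 0.57 and 0.33 in the other cardioGRMRdKO hearts of that age, and Fabp4 stood at 7.34 there against 7.84 and 7.89. The part of fat cells in the Fabp4 values was not tested. Cav1 differed by −0.03 at 1 month. Calcrl differed by −0.25 at 2 months. Ramp2, which makes Calcrl a receptor for adrenomedullin, differed by −0.02 and −0.17, and Aplnr, the apelin receptor, by −0.01 and −0.29. Dll4, a Notch ligand, differed by −0.08 and −0.28 and Notch4, a Notch receptor of endothelium, by 0.04 and 0.05. Efnb2, the arterial ephrin-B2, differed by 0.09 and 0.04, and Acvrl1, the BMP9 receptor ALK1, by −0.16 and −0.14. Efnb2, Gpihbp1 and Notch4 were the 3 members above 0 at both ages, and 24 were below 0 at both. Neither count was made over all genes.

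Averaged over the ages, 1 member was called, Icam2, where 4.5% of all genes were called and 2.25% were called lower. Icam2 fell 1.27-fold, a log2 difference of −0.35 (SE 0.085, 95% interval −0.53 to −0.16, adjusted p = 0.049). The call lay at the edge of the threshold and was lost in 11 of the 12 fits that left out a heart, with adjusted p from 0.0463 to 0.124, and under 11 of 16 other settings, while its direction was the same in all of them. With the airway marker level as a covariate the difference was −0.36 (adjusted p = 0.0836). Members with an unadjusted p under 0.05 numbered 7, against 17.6% of all genes. The members' median was −0.131, against −0.0575 over all genes, and 26 of 32 were below 0, against 61.1% of all genes. All 32 intervals stayed within a 2-fold change, with the same limit from the members' lower standard errors.

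Whether the genotype difference itself changed between the ages was tested as an interaction. Limma called 0 members and 0% of all genes, and at an unadjusted p under 0.05 there were 2 members, against 3.53% of all genes. These were Sox17 and Cav1, whose genotype difference at 2 months minus that at 1 month was −0.69 (SE 0.283) and −0.47 (SE 0.201), each with an adjusted p of 0.934. On the second probes of Sox17 and Cav1 the same value was 0.08 and −0.05. For no member was the genotype difference shown to differ between the ages.

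Members with several kept probes numbered 11, and their probes did not always give the same value. At 2 months the probes of 7 of the 11 had the same sign, and the median spread between probes of a gene was 0.24. The widest spreads were 0.627 for Tek and 0.567 for Sox17. Both Erg probes were below 0, at −0.45 and −0.59, as were all 4 Flt1 probes, between −0.33 and −0.20. When every probe was tested on its own, 0 of the 46 probes was called in any comparison.

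**Figure D3:**
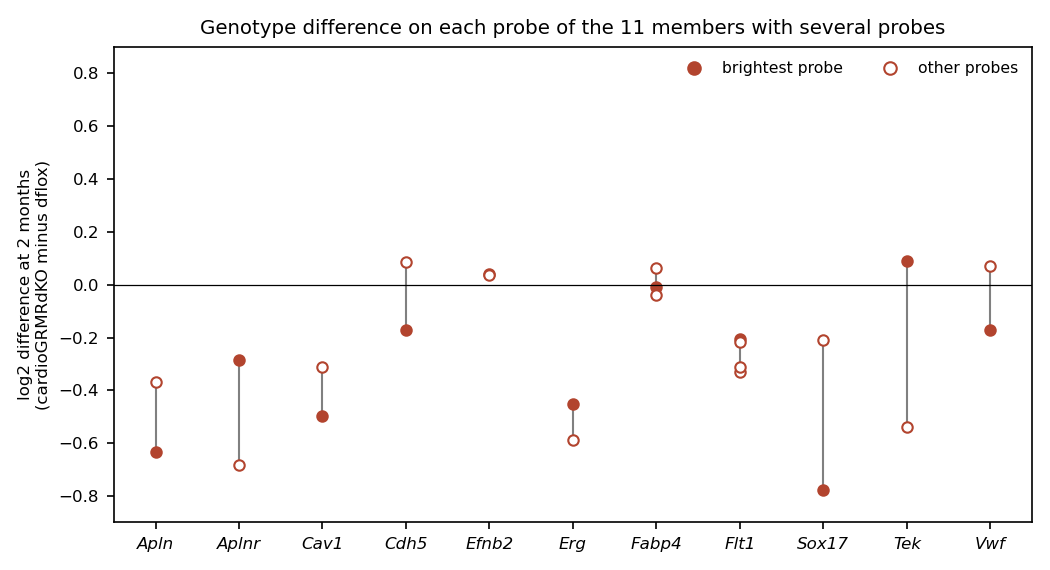
Log2 difference between cardioGRMRdKO and dflox hearts at 2 months on each kept probe of the 11 members with more than 1, with the brightest probe filled. The probes of Tek lie 0.627 apart on opposite sides of 0 and those of Sox17 0.567 apart on the same side.

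The next comparison set 2 months against 1 month within each genotype. In cardioGRMRdKO hearts 0 of 32 members were called, where 0.378% of all genes were, and in dflox hearts 0 of 32, where 0.553% were. At an unadjusted p under 0.05 there were 12 members in cardioGRMRdKO and 7 in dflox hearts, against 12.4% and 14.1% of all genes. Members below 0 numbered 24 in cardioGRMRdKO and 25 in dflox hearts, against 54.2% and 42.3% of all genes. Their medians were −0.232 in cardioGRMRdKO and −0.191 in dflox hearts, against −0.0233 and 0.0507 over all genes, a distance of −0.209 and −0.242. With the arrays scaled on their median these distances were −0.208 and −0.243, although the median of all genes in dflox hearts moved by −0.13.

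In each genotype 12 members had every 2-month heart below every 1-month heart, which is 37.5% of the members, against 10.8% of all genes in cardioGRMRdKO and 8.68% in dflox hearts. The reverse gap was seen in 0 members and in 7.2% of all genes in cardioGRMRdKO and 11.6% in dflox hearts. The 2 sets shared 9 genes, 9 of 12 in each: Apln, Calcrl, Cdh5, Egfl7, Esam, Gpihbp1, Icam2, Notch4 and Rasip1. The share of all genes with separate ages in both genotypes was not computed, so the sharing is not shown to be particular to the members. The 2 age comparisons share no heart, but they share the 3 slides. Among dflox hearts only slide 1 held both ages, so age and slide are largely mixed there. With slide as a fixed term the members' age median in dflox hearts was −0.117, against 0.012 over all genes. Of the 9 genes, Apln and Cdh5 have a second kept probe. That of Apln gave −0.73 in cardioGRMRdKO and −0.38 in dflox hearts, and that of Cdh5 gave 0.08 and −0.10. Among the 11 members with several kept probes, all probes had the same sign for age in 5 in cardioGRMRdKO and 8 in dflox hearts. In total 20 members were below 0 in both genotypes, a count not made over all genes. Those above 0 in both were Acvrl1 and the VEGF receptors Flt1 and Kdr.

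**Figure D4:**
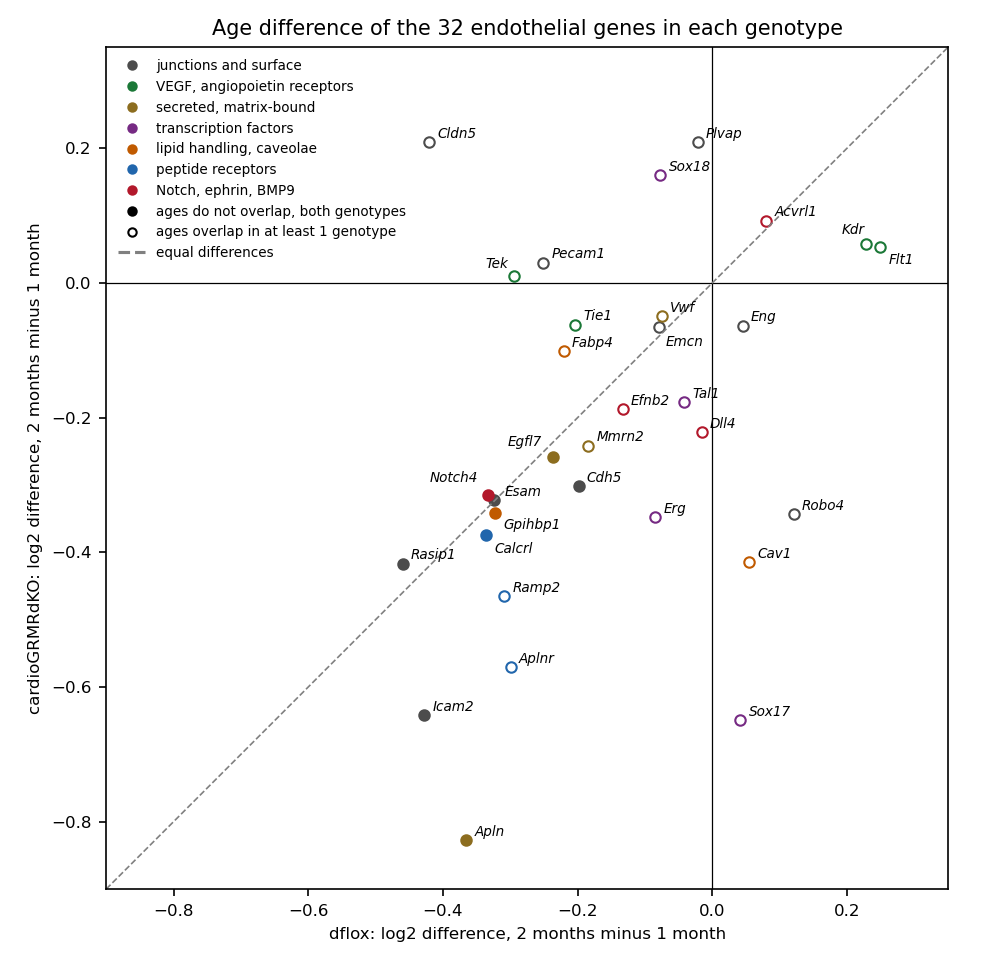
Log2 difference between 2 and 1 months in cardioGRMRdKO hearts (vertical axis) and dflox hearts (horizontal axis) for the 32 endothelial genes, coloured by role. Points are brightest probes. The 9 filled genes had separate ages in both genotypes, and Sox17, Cav1 and Robo4 lie below 0 in cardioGRMRdKO hearts and slightly above 0 in dflox hearts. The second Sox17 probe gave −0.19 in cardioGRMRdKO and −0.27 in dflox hearts, and that of Cav1 gave 0.05 and 0.09.

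Icam2 had the smallest p for age in cardioGRMRdKO hearts, at −0.64 (SE 0.12, adjusted p = 0.0612), and stood at −0.43 in dflox hearts (SE 0.12, adjusted p = 0.145). Rasip1 had 2.19, 2.04 and 2.20 at 2 months and 2.63, 2.46 and 2.59 at 1 month in cardioGRMRdKO hearts. In dflox hearts it had 2.38, 2.12 and 2.21 at 2 months and 2.75, 2.69 and 2.65 at 1 month. The ages were separate in each genotype by a like amount, −0.42 in cardioGRMRdKO (SE 0.102, adjusted p = 0.118) and −0.46 in dflox hearts (SE 0.102, adjusted p = 0.0758). Apln in cardioGRMRdKO hearts had 0.56, 0.40 and 0.36 at 2 months against 1.65, 0.94 and 1.21 at 1 month, the largest member difference in either age comparison at −0.83 (adjusted p = 0.0899), and −0.37 in dflox hearts (adjusted p = 0.384).

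Notch4 in cardioGRMRdKO hearts had 1.81, 1.64 and 1.63 at 2 months and 2.12, 1.90 and 2.00 at 1 month, and in dflox hearts 1.75, 1.65 and 1.51 at 2 months and 1.96, 1.98 and 1.98 at 1 month. The differences were −0.31 (adjusted p = 0.233) and −0.33 (adjusted p = 0.182). Esam in cardioGRMRdKO hearts had 1.98, 1.98 and 1.85 at 2 months and 2.25, 2.24 and 2.29 at 1 month. In dflox hearts it had 2.19, 2.00 and 2.00 at 2 months and 2.34, 2.53 and 2.30 at 1 month, and its difference was −0.32 in each genotype (adjusted p = 0.209 in cardioGRMRdKO and 0.183 in dflox hearts). The ages did not overlap for either gene. Sox17 differed by −0.65 in cardioGRMRdKO hearts (adjusted p = 0.205) and by 0.04 in dflox hearts (adjusted p = 0.935). Its second probe gave −0.19 in cardioGRMRdKO and −0.27 in dflox hearts. With robust variances and an intensity trend, Icam2 in cardioGRMRdKO hearts (adjusted p = 0.0319) and Rasip1 in dflox hearts (adjusted p = 0.0438) passed.

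By role, the age differences were lowest among the 3 peptide receptors, which were below 0 in both genotypes, with medians of −0.465 in cardioGRMRdKO and −0.309 in dflox hearts. A dim second probe of Aplnr gave −0.22 in cardioGRMRdKO and 0.49 in dflox hearts, so its direction in dflox hearts differed between its probes. Calcrl had 1.60, 1.53 and 1.25 at 2 months and 1.82, 1.70 and 1.98 at 1 month in cardioGRMRdKO hearts, and 1.79, 1.63 and 1.71 at 2 months and 1.97, 2.06 and 2.10 at 1 month in dflox hearts. Its differences were −0.37 and −0.34, and those of its partner Ramp2 −0.47 and −0.31, in cardioGRMRdKO and dflox hearts. None of them passed. Junction and surface genes had medians of −0.184 in cardioGRMRdKO and −0.225 in dflox hearts, with Cdh5 at −0.30 and −0.20 on its brightest probe. Secreted and matrix-bound genes were all 4 below 0 in both genotypes, with medians of −0.25 and −0.21, and Egfl7 at −0.26 and −0.24. Gpihbp1 differed by −0.34 in cardioGRMRdKO and −0.32 in dflox hearts, without overlap between ages. Of the 4 tyrosine kinase receptors 1 was below 0 in cardioGRMRdKO and 2 in dflox hearts, with medians of 0.0316 and 0.0124, Kdr at 0.06 and 0.23 and Flt1 at 0.05 and 0.25. Transcription factors had medians of −0.262 in cardioGRMRdKO and −0.0596 in dflox hearts.

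Markers of other cell types also differed by age. Of 12 fibroblast markers, 10 were below 0 in cardioGRMRdKO and all 12 in dflox hearts, with medians of −0.318 and −0.389, and Col1a1 was called in both genotypes and Col1a2 and Mfap5 in dflox hearts. Medians of 14 cardiomyocyte markers were −0.0459 in cardioGRMRdKO and 0.0152 in dflox hearts. The median deviation per heart of smooth muscle and pericyte markers averaged 0.197 at 1 month and −0.0348 at 2 months in dflox hearts. In cardioGRMRdKO hearts it averaged −0.0449 and −0.0907. For macrophage markers these values were −0.00621 and −0.192 in dflox and 0.18 and 0.0515 in cardioGRMRdKO hearts. Lymphocyte and platelet markers were higher at 2 months in each genotype, and epicardial, fat cell and erythroid markers moved in opposite directions. Airway markers had age medians of opposite sign, 2.85 in cardioGRMRdKO and −2.42 in dflox hearts. With the airway level as a covariate the endothelial medians were −0.248 in cardioGRMRdKO and −0.168 in dflox hearts. Whether the make-up of the hearts in cells had a part in the age differences was not tested.

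Taken per heart, the members' shift can be read as the median over the 32 genes of each heart's deviation from the gene's mean over all 12 hearts. At 1 month it was 0.07, −0.00 and 0.09 in cardioGRMRdKO and 0.09, 0.20 and 0.13 in dflox hearts. At 2 months it was −0.14, −0.19 and −0.22 in cardioGRMRdKO and 0.02, −0.00 and −0.07 in dflox hearts. The 3 cardioGRMRdKO hearts at 2 months were the lowest of the 12. All genes also leaned lower there, with a median genotype difference of −0.095 at 2 months, and their shift per heart was not computed. Within slides that held both genotypes, the members' median genotype difference at 1 month was −0.114 on slide 1 and −0.067 on slide 2, against −0.03 and −0.0171 over all genes. At 2 months it was −0.243 on slide 1 and −0.108 on slide 3, against −0.0808 and −0.0946 over all genes, so that on slide 3 the members lay close to all genes. The age difference in cardioGRMRdKO hearts was −0.268, −0.209 and −0.236 on slides 1, 2 and 3, against −0.0849, 0.00578 and 0.0118 over all genes. In dflox hearts slide 1 alone held both ages, with 1 heart of each, and the median was −0.0667 there against −0.0441 over all genes. The distance of the dflox age median from all genes was thus much smaller within that slide than over all hearts.

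**Figure D5:**
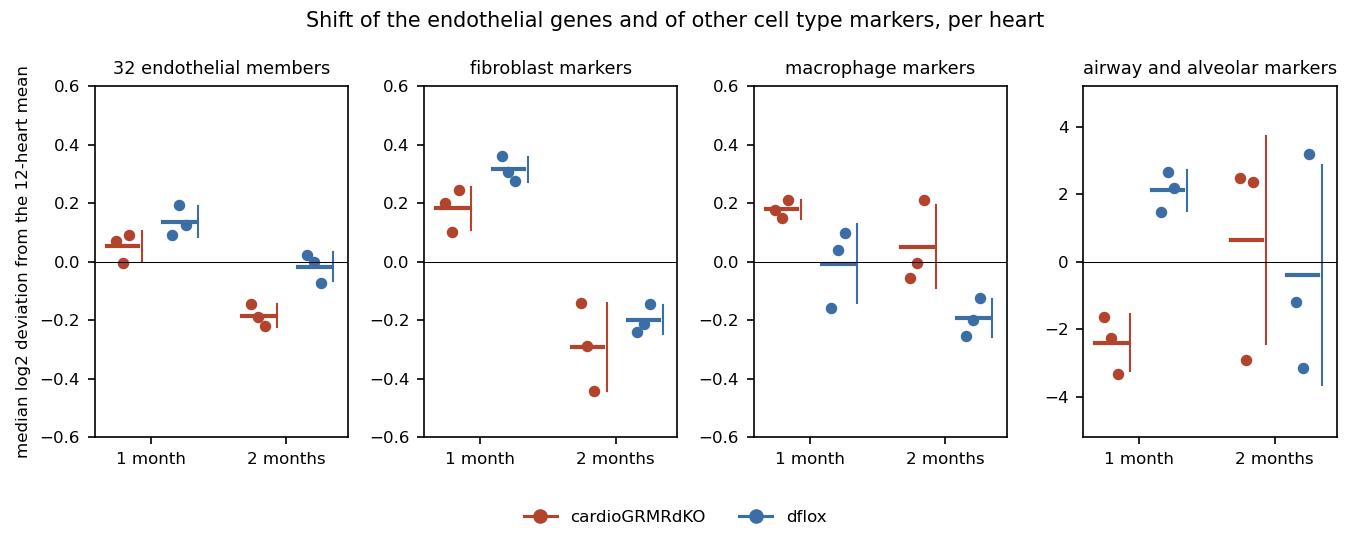
Median log2 deviation of each heart (points) from the mean of all 12 hearts over the 32 endothelial genes and over 3 lists of markers of other cells, with group mean (horizontal line) and SD (vertical line), cardioGRMRdKO left of dflox. The endothelial shift of the 3 cardioGRMRdKO hearts at 2 months lies between −0.22 and −0.14, below all other hearts, and the airway panel has a wider vertical axis. The median genotype difference of all genes at 2 months was −0.095.

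Markers of particular vessel types gave no called gene between genotypes. At 2 months 7 of 8 measured arterial markers were below 0 (median −0.221), 4 of 7 venous (median −0.167), 3 of 7 lymphatic (median 0.0464) and 4 of 6 endocardial markers (median −0.0947). At 1 month these medians were −0.134, −0.195, −0.121 and −0.251. Of 8 measured lung capillary markers, Sox17 among them, 6 were below 0 at 2 months (median −0.158) and 5 at 1 month (median −0.0752). Of the other cell types at 2 months, 12 of 14 cardiomyocyte markers (median −0.146), 9 of 12 fibroblast markers (median −0.084), 9 of 12 smooth muscle and pericyte markers (median −0.115) and 6 of 7 epicardial markers (median −0.103) were below 0, on the same side as the endothelial members, while 2 of 10 fat cell markers were (median 0.203). Macrophage markers had 12 of 13 above 0 at each age, with medians of 0.204 and 0.186. Of these lists 1 gene was called at 2 months, Acta2, a smooth muscle actin, which was higher in cardioGRMRdKO hearts.

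Beyond the 32 members, 8 lists of other genes of endothelial pathways were examined in the same fit. Their 113 measured genes gave 2 calls at 1 month and 1 at 2 months, in genes of opposite direction, where 0.98% and 2.31% of all genes were called. Of the 113, 76 were below 0 at 1 month and 86 at 2 months, against 50.3% and 63% of all genes. Lmo2, a LIM protein that bridges Tal1 to GATA factors and is also made by blood cells, had −0.65, −0.61 and −0.65 in cardioGRMRdKO and −1.14, −1.11 and −1.17 in dflox hearts at 1 month. At 2 months it had −0.27, −0.11 and −0.11 in cardioGRMRdKO and −0.76, −0.89 and −1.01 in dflox hearts. The groups were apart by more than their own spread at each age. Lmo2 rose by 0.50 at 1 month (SE 0.0942, adjusted p = 0.0372) and by 0.72 at 2 months (SE 0.0942, adjusted p = 0.00323), whereas its partner Tal1 differed by −0.13 and −0.27 and did not pass. Leaving out single hearts ended the 1-month call of Lmo2 in 8 of 12 fits and the 2-month call in 0 of 12.

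Tmem100, a membrane protein that acts downstream of BMP9 and Acvrl1 in endothelium and is abundant in lung, had −0.59, −1.13 and −0.72 in cardioGRMRdKO and 0.45, 0.18 and 0.29 in dflox hearts at 1 month. At 2 months it had −0.64, −1.08 and −0.45 in cardioGRMRdKO and −0.56, −0.37 and −0.94 in dflox hearts, overlapping. It fell by 1.12 at 1 month (SE 0.207, adjusted p = 0.0346), and the 2-month difference was −0.10 (adjusted p = 0.812). The 1-month call was lost in 8 of 12 fits that left out a heart. The 3 dflox hearts at 1 month also had airway marker levels above those of every cardioGRMRdKO heart of that age. The part of lung tissue in the Tmem100 values was not tested beyond the covariate. With the airway level as a covariate the 1-month difference was −1.14 and no longer passed (adjusted p = 0.242), and Lmo2 was 0.43 at 1 month (adjusted p = 0.356) and 0.74 at 2 months (adjusted p = 0.00553).

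Apart from Lmo2 and Tmem100, no gene of these lists was called between genotypes at a single age. Of 13 further genes of the VEGF and angiopoietin pathway, 8 were below 0 at each age, and the smallest p values were those of Vegfd, a ligand of lymphatic growth, at −0.50 at 1 month and 0.06 at 2 months, and Hif1a, the oxygen-sensing factor that induces VEGF, at 0.39 and 0.55. Of 15 genes of Notch and ephrin signalling, 11 and 13 were below 0, and the Notch target Hey2 stood at −0.63 at 1 month and −0.36 at 2 months, and Hes1, another, at 0.08 and 0.77. In the BMP9 and BMP10 list Gdf2, the gene of BMP9, was dim, well above background in 2 of 3 cardioGRMRdKO hearts and all 3 dflox hearts at 2 months, and differed by −0.49 at 1 month and −0.84 at 2 months (adjusted p = 0.194). Cxcl12, a chemokine, stood at −0.24 at 1 month and −0.64 at 2 months (adjusted p = 0.068), and Nos3, the endothelial nitric oxide synthase, at −0.19 and −0.18. Lpl, the lipase that Gpihbp1 binds, stood at −0.25 and −0.36. Calca, the gene of the peptide CGRP, a ligand of Calcrl, was dim and differed by 1.27 at 1 month (adjusted p = 0.105) and 0.33 at 2 months, where the groups overlapped. Of 24 other pan-endothelial genes 13 and 18 were below 0, with Egfl8 at −0.44 at 1 month and −0.13 at 2 months and Ptprm at 0.10 and 0.35.

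The promoters of the members were examined for the core motif of ETS factors such as Erg. RefSeq windows of build GRCm38.p6, from 250 bases before to 50 after a start, were matched by symbol for 18 of the 32 members, as 24 windows. The 3 stretches below are the last 120 bases before the start of the plus-strand genes with a window among the 9 members whose ages were separate in both genotypes (for Egfl7, the second of its 3 starts), with matches of the searched motifs in capitals. The stretch before the first Egfl7 start, not printed, held 2 matches and that before the third held 0.
Rasip1, chr7:45627417-45627536: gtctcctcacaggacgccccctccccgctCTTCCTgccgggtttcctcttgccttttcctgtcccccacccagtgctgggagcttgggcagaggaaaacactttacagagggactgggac
Notch4, chr17:34564175-34564294: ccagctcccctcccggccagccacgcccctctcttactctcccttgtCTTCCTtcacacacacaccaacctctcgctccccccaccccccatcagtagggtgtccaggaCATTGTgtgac
Egfl7, chr2:26583745-26583864: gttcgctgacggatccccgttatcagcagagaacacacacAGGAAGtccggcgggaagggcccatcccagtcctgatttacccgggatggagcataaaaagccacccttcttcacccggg
The motifs searched on both strands were AGGAAG and CCGGAA for ETS, AGATAA for GATA and ACAATG for SOX factors. The ETS motifs share the core GGAA and cannot match at the same core, and overlaps at the ends were counted for each motif. AGGAAG was in 54.2% of the members' windows and 35.4% of all 32851 windows, and CCGGAA in 4.17% and 14.9%. AGATAA was in 12.5% and 11.2% and ACAATG in 12.5% and 12.6%. Either ETS motif was in 58.3% of the members' windows and 45.2% of all windows. A match is a run of letters and no evidence of binding.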

How the data were processed

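Per the labels' protocols, total RNA of whole hearts was labelled with Cy3 and hybridised to Agilent whole mouse genome arrays, 4 to a slide. The authors' deposited scanner files hold a background-subtracted linear intensity per spot, made with Agilent Feature Extraction (version 9.5.3.1, per the file headers). Intensities in the deposited series matrix were identical.

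Control and outlier spots were left out, log2 intensity was set relative to each array's 75th percentile, and 4 group means were fitted to 12 arrays with limma 3.58.1 (R 4.3.3), with moderated variances. Calls were made at a p under 0.05 after Benjamini-Hochberg adjustment over 18258 genes. All tests were two-sided, and an exact permutation test of 3 against 3 hearts cannot go below 0.1. The number of hearts limits the precision. On simulated data for the 2-month comparison (17782 genes), the fit recovered 8, 58, 74 and 92% of log2 changes of 0.5, 1, 1.5 and 2, with 5 false among 121 calls. The simulated noise was independent between genes and hearts, with few genes changed and no slide, place or airway variation. These shares therefore need not hold for the measured hearts.

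Members, lists and motifs were chosen with earlier results of these data known. Named genes are called members, the 4 members with the smallest p per genotype and age comparison, and the called or smallest-p gene of each other list. Probes named by an ambiguous older symbol, 3 in number, were left out. Replicate numbers did not pair the hearts: same-numbered hearts of different groups correlated between −0.49 and 0.551, and 5 of 18 pairs were over 0.1. Alternatives covered normalization, background, filters, probes, slide, place, replicate, airway level, variance and left-out hearts or slides.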

Additional observations from a re-analysis of the deposited data

How the results depend on the processing

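The count of called members stayed at 0 at 1 month and in the interaction under all 17 other settings. At 2 months it was 1 (Sox17, adjusted p = 0.0495), in the cardioGRMRdKO age comparison 1 (Icam2, adjusted p = 0.0319) and in the dflox age comparison 1 (Rasip1, adjusted p = 0.0438) with robust variances and an intensity trend, and 0 under the others. Averaged over the ages it was 2 (Icam2 and Sox17) with the mean of passing probes, and 0 with quantile normalization, normexp, median scaling, no filter, every probe on its own, slide or place as a fixed term, the airway covariate, or without slide 1, 2 or 3. Leaving out single hearts it was 0 to 1: Icam2 was called without dflox 1-month replicate 3, Apln without cardioGRMRdKO 1-month replicate 1, and no member without any other heart. With the replicate number as a block it was also 0 (Icam2 −0.345, adjusted p = 0.0771), and no other member's call changed.

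At 1 month the members' median lay −0.048 from that of all genes with normexp background correction, against −0.11 as reported. The members' median at 2 months was −0.0717 with quantile normalization, −0.0434 with median scaling, −0.106 without slide 1, and −0.223 to −0.133 with single hearts left out, lowest without dflox 2-month replicate 3. Averaged over the ages it was −0.0633 with median scaling. In cardioGRMRdKO hearts the age median was −0.175 with place as a term and −0.182 over single probes. In dflox hearts it was −0.322 with median scaling, −0.117 with slide as a term, −0.125 without slide 2, −0.122 without slide 3, −0.117 over single probes, and −0.236 to −0.128 with single hearts left out. The median interaction changed sign: it was 0.00507 with quantile normalization, −0.11 with normexp, 0.0535 with median scaling, −0.126 with slide as a term, 0.00389 with place, 0.028 with the airway level, 0.0294 without slide 1, −0.1 without slide 2, and −0.109 to −0.00196 with single hearts left out. The causes were not tested.

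Lmo2 lost its 1-month call in 8 of 12 fits without a heart and under 11 of 16 other settings, and Tmem100 in 8 and 10. Lmo2 at 2 months was lost in 0 of 12 and 3 of 16. Over all genes, calls reached at most 230 at 1 month over these settings (179 as reported). At 2 months the highest count was 556 (422 as reported), which are probes and not genes, from the fit of every probe on its own. Calls were fewest where a slide was left out and some groups kept 1 heart, assumed to vary like the others.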
